A study of Mus musculus with 12 samples.

Results

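The initiation and elongation factors of cytosolic translation were followed in the spinal cord of mice with a dominant mutation of Gars, which encodes the enzyme that loads glycine onto its tRNA. The factors were taken by symbol, as all genes whose name begins with Eif1 to Eif6 or with Eef1 or Eef2. The eIF2 kinases (Eif2ak), the eIF4E-binding proteins (Eif4ebp), Eef1e1, the Y-linked Eif2s3y and symbols with the pseudogene ending -ps were left out. Of the 38924 genes in the files, 55 symbols matched, and 53 of them reached a mean of 1 TPM (transcripts per 1e+06, a level per transcript length) over the 12 mice and form the set described here. The 2 that fell under this level were Eif2c5, listed at 0, and Eif4e1b, at 0.02 TPM. The lowest gene inside it was Eif4e3, at 10.1 TPM, followed by Eif1ad at 16.4 TPM. All 53 passed the filter on low counts that left 17980 tested genes.

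RNA was taken from whole spinal cord at 8 weeks of age from 6 wild-type (WT) mice and 6 mice heterozygous for the Gars allele P278KY, on a mixed C57BL/6J and CAST background (B6J;CAST in the labels). Each genotype had 3 females and 3 males. WT mice were females 1, 2 and 10 and males 5, 11 and 12. Mutants were females 3, 4 and 9 and males 6, 7 and 8. Poly(A) RNA was sequenced in stranded libraries as pairs of 75-base reads, and the libraries held 26982140 to 39339999 expected counts. In bulk tissue, fewer cells of a type and less RNA per cell cannot be told apart.

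Initiation begins when eIF2 brings the initiator tRNA to the small ribosomal subunit, with eIF1, eIF1A, eIF3 and eIF5 bound to it, while the eIF4 proteins bind the mRNA cap and unwind the leader. eIF2B recharges eIF2 with GTP, and phosphorylation of eIF2 blocks that exchange and starts the integrated stress response. In elongation eEF1A delivers each charged tRNA to the ribosome and eEF2 moves the ribosome to the next codon, so a shortage of a charged tRNA acts at the step that these factors serve. Mutations in the eIF2B subunits cause a loss of white matter, and loss of Eef1a2 in mice causes degeneration of motor neurons.

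The 2 genes of eIF5A, a factor that helps ribosomes through slow steps of elongation and termination, were both among the genes called lower on counts in P278KY cord. On the TPM scale neither passed, and the call of Eif5a was lost in 9 of the 12 fits that left out 1 mouse. The messages of the 2 genes can be told apart by sequence, although the site of their one special modification is alike. The stretches below run around the codon of lysine 50, which is changed to hypusine and without which eIF5A does not work. They come from GENCODE M21 transcripts (GRCm38), from exon 3 of Eif5a at chr11:69919151-69919198 on the minus strand and exon 2 of Eif5a2 at chr3:28782169-28782216 on the plus strand. Capitals mark the lysine codon, and 5 of the 48 bases differ.
Eif5a: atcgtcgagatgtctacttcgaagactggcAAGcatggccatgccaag
Eif5a2: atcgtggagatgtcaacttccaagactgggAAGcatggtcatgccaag
The encoded proteins are 154 and 153 residues long. Of the 75-base windows of Eif5a, 1.80% occur in another annotated gene, and of those of Eif5a2 none do.

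Eif4a1, the gene of the main cap-complex helicase, is the opposite case. Its processed pseudogene Eif4a-ps4 on chromosome 1 carries nearly the same sequence, and of 354 coding windows of 90 bases placed on it, 334 (94.4%) are identical and none differs at more than 1 base. The window below is one of those with a difference, shown because it is all that a read there has to go by. It lies in exon 6 of Eif4a1 at chr11:69668664-69668753 on the minus strand and, in the pseudogene, at chr1:60704446-60704535 on the plus strand (GRCm38, GENCODE M21). The capital marks the differing base.
Eif4a1: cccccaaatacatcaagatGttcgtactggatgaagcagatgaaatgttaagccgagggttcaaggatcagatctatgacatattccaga
Eif4a-ps4: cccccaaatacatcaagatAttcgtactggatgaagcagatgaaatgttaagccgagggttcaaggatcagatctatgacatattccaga

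Promoters of the factors were searched for the core of the C/EBP-ATF response element, TGATGNAA on either strand, the sequence that ATF4 binds in genes of the integrated stress response. RefSeq (GRCm38.p6) gave windows of 300 bases, 250 before and 50 after a start site, for 42 of the 53 genes (56 promoters). The motif was present in 2 of the 42 genes (4.76%), Eef2k and Eif2s3x. It is present in 3.97% of all 32851 promoters and in 4.51% of all 27025 genes. The windows are chr7:120851079-120851138 (plus strand) for Eef2k, upstream of 1 of its 3 RefSeq start sites, and chrX:94212714-94212773 (minus strand) for Eif2s3x. The Eef2k window lies inside the gene as annotated in GENCODE M21, which begins at 120842831, so that start site is an internal one. The Eif2s3x window lies inside its gene too, close to the beginning at 94212862. Capitals mark the match, which reads on the strand opposite to the gene.
Eef2k: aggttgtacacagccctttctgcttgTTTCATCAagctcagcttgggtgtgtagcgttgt
Eif2s3x: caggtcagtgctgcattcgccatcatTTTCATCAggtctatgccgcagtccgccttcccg
These 2 genes are described below for different reasons, Eef2k because it rose with the mutation and Eif2s3x because it differed between the sexes.

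In both genotypes the machinery was abundant and its genes were expressed at very unequal levels. On the TPM scale, which is per transcript length, Eef1a1 (the widely expressed eEF1A) had a mean level of 1625 TPM over the 12 mice and Eef2 (the translocation factor) 872 TPM. Eef1a2, the eEF1A of neurons and muscle, followed at 798 TPM, then Eif4a2 (a second eIF4A helicase) at 577 TPM and Eif1 (which guards start codon choice) at 571 TPM. These 5 genes made up 49.8% of the 8926 TPM summed over the set. The median gene, Eif1ax, was at 72.8 TPM, and the highest and lowest genes lay 161-fold apart.

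The levels differed by family as well as within each family. The 5 eEF1 genes summed to 3100 TPM (34.7% of the set), the 12 eIF4 genes to 1867 TPM (20.9%) and the 14 eIF3 genes to 1192 TPM (13.4%). The eIF2 list (Eif2s1, Eif2s2, Eif2s3x, Eif2a and Eif2d) summed to 242 TPM and the 5 subunits of its exchange factor eIF2B to 162 TPM. The 3 subunits of eIF2 itself were not at one level: Eif2s1 (alpha, which is phosphorylated under stress) was at 19.7 TPM, Eif2s2 (beta) at 65.7 TPM and Eif2s3x (gamma) at 95.2 TPM. The eIF2B subunits ranged from 18.2 TPM (Eif2b3) to 52.6 TPM (Eif2b2), and the eIF3 subunits from 17.7 TPM (Eif3j2) to 168 TPM (Eif3k). Among the eIF4 genes Eif4e3, a minor cap-binding protein, was the lowest at 10.1 TPM, below Eif4e2 at 42.2 TPM and the main cap-binding protein Eif4e at 54.3 TPM. Eif4g2 (332 TPM), a scaffold that does not bind the cap protein, was above the 2 scaffolds that do, Eif4g1 (138 TPM) and Eif4g3 (100.2 TPM).

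**Figure D1:**
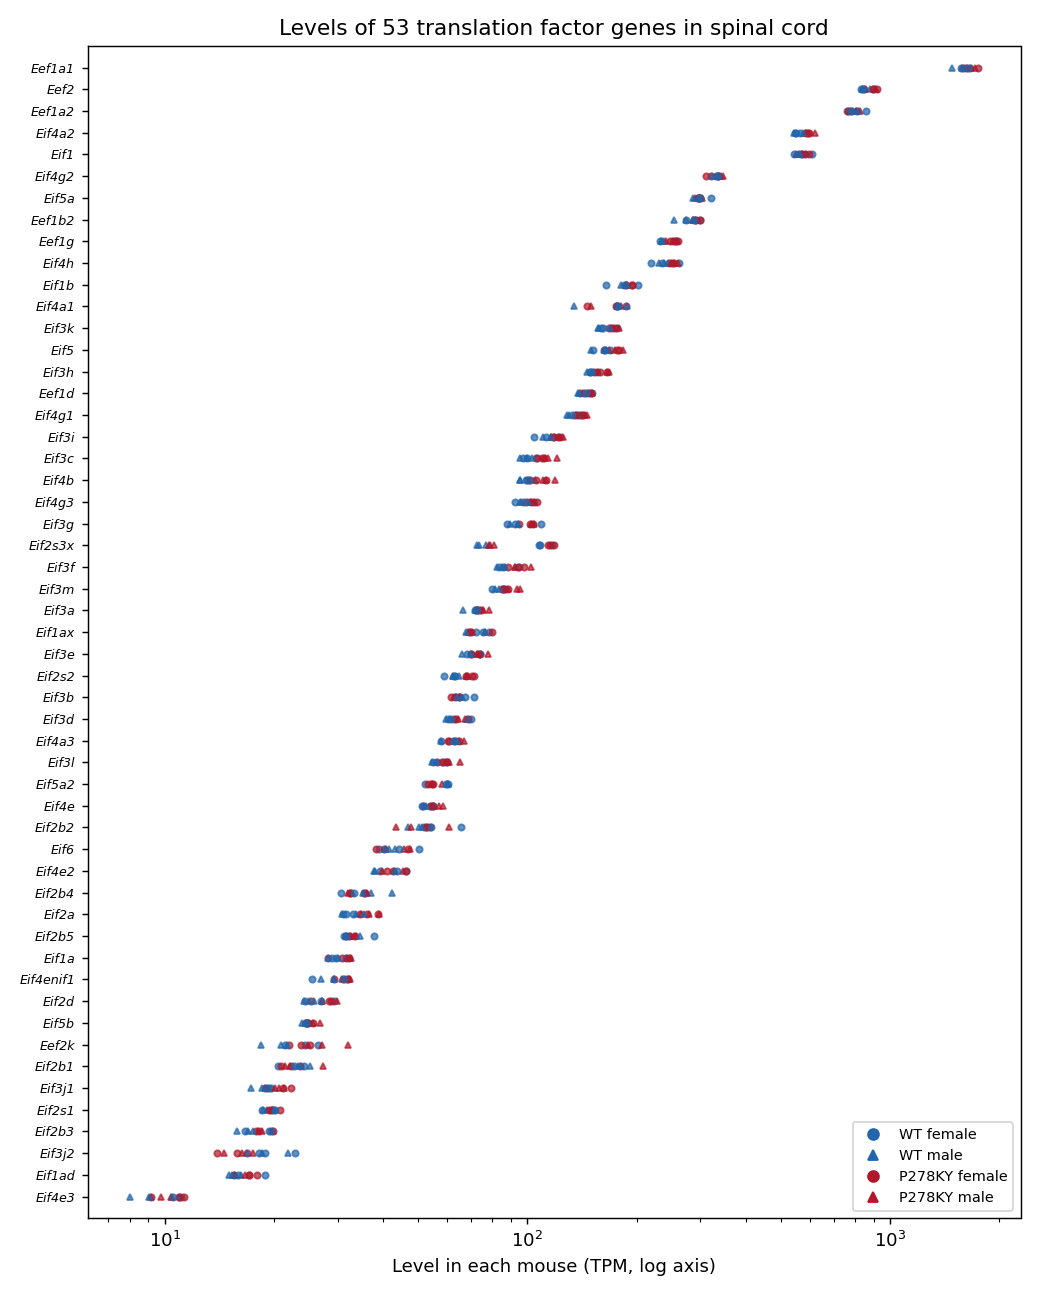
Level of each of the 53 factor genes in each mouse, in TPM on a log axis, with genes ordered by their mean (circles, females; triangles, males; blue, WT; red, P278KY). The symbols of most genes lie close together while genes spread from 10.1 to 1625 TPM, and Eif2s3x splits into 2 clusters by sex.

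The plot of levels by mouse shows that most genes varied little beside the spread between genes. Wider ranges on TPM included Eef2k (18.38 to 32.02), Eif3j2 (13.96 to 22.9) and Eif2s3x (72.58 to 118.4). Over the 6 WT mice the median coefficient of variation of the set was 4.14% on CPM (counts per 1e+06 counts of a library). The set took 0.924% to 0.969% of all expected counts in each library. Expected counts per library ran from 276 for the least sequenced value, in Eif4e3, to 54386 for the most.

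The comparison of WT with P278KY asks which transcripts differ in the mutant cord. It moved 5 of the 53 factors past the threshold, all by small amounts. Eif3b, Eif3j2, Eif5a and Eif5a2 were lower and Eef2k was higher in P278KY mice, by the quasi-likelihood test of edgeR with sex as a covariate and a Benjamini-Hochberg adjusted p under 0.05 over all genes. For comparison, 5.32% of all tested genes passed. The set had 1 gene higher (2.36% of all genes were) and 4 lower (2.95% of all genes were). On CPM, values of the 2 genotypes did not overlap in 3 of the 53 genes, against 3.73% of all genes. These were Eif3b, Eif3j2 and Eif5a, all lower in P278KY. On TPM the genotypes overlapped in all 3. There the lowest WT and highest mutant values were 63.48 and 65.34 (Eif3b), 16.87 and 17.56 (Eif3j2) and 285.9 and 302.15 (Eif5a). At an unadjusted p under 0.05 there were 12 of the 53 genes, against 3637 of all 17980 tested genes. The median log2 change was -0.02 over the set and 0.00 over all tested genes.

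The intervals around these changes were narrow. The median standard error (SE) of the log2 change was 0.036, against 0.072 over all genes. The 95% interval lay within a 1.2-fold change in either direction for 51 of the 53 genes (96.2%), and for 8986 of all 17980 tested genes. The exceptions were Eif3j2 and Eif4a1, of whose 75-base windows 87.4% and 25.4% occur in other genes. Over the set 6 genes share more than 20% of their windows and 26 share none. The others above 20% were Eef1g (38.0%), Eif3j1 (35.0%), Eif2s3x (34.2%) and Eef1a1 (26.6%), and their intervals lay within 1.2-fold.

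**Figure D2:**
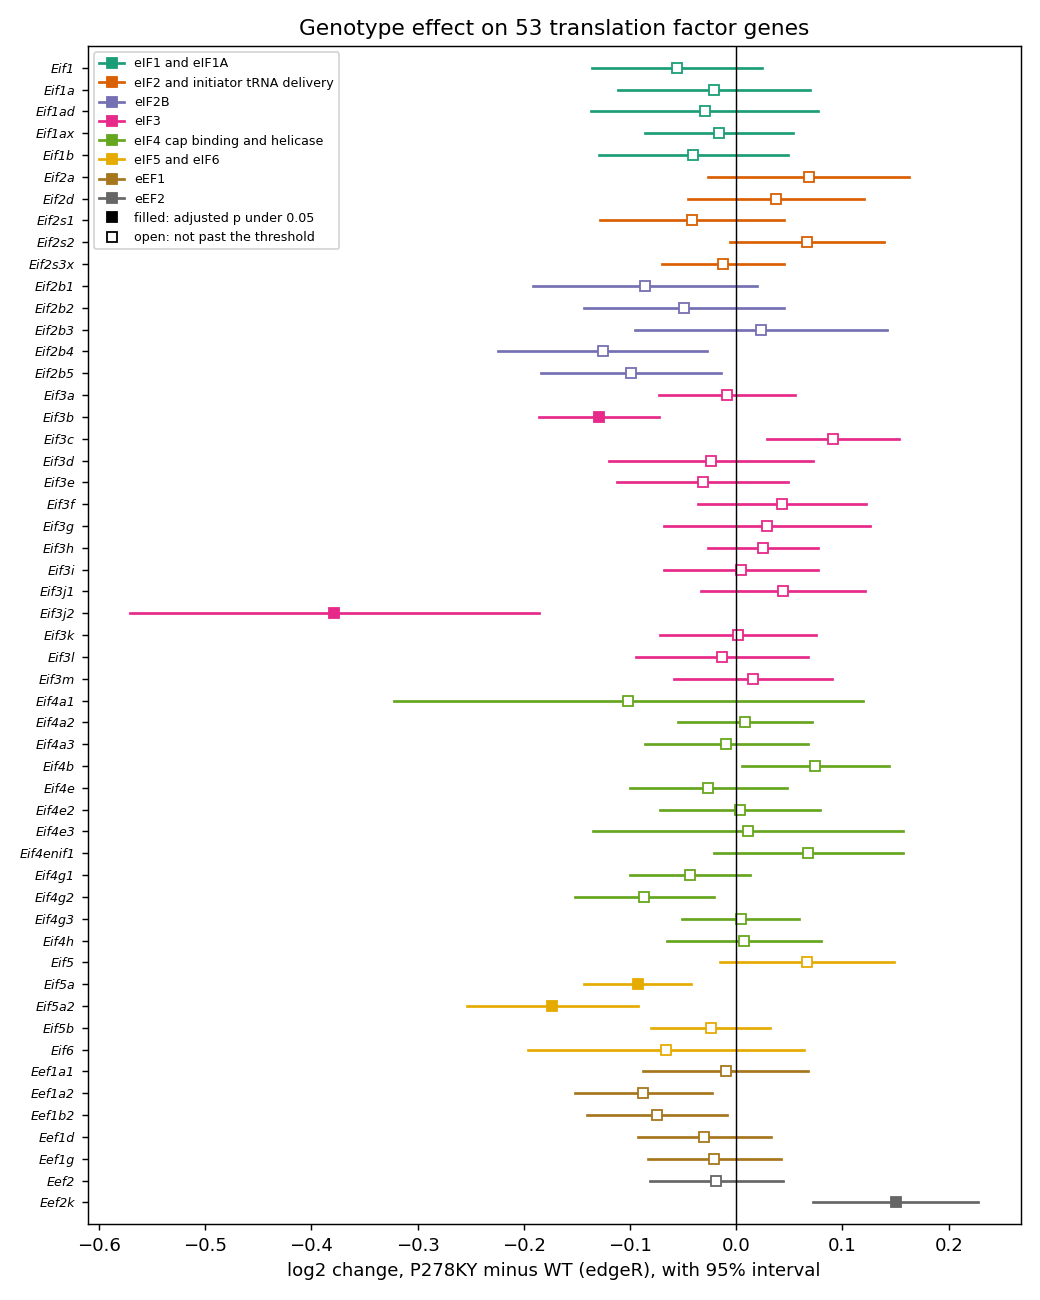
Log2 change between genotypes (P278KY minus WT, edgeR) for the 53 genes with 95% intervals, grouped by family, filled where the adjusted p was under 0.05. Most intervals cross 0 and end within 0.2 of it, while Eif3j2 lies farthest to the left at -0.38.

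Initiation starts with the small eIF1 and eIF1A proteins. Of the 5 genes listed with them by symbol, 0 passed edgeR's test and 0 had an unadjusted p under 0.05. Their log2 changes ran from -0.06 to -0.02 on counts, and on log2(TPM + 1) from -0.02 (Eif1ax) to 0.06 (Eif1a). Eif1, the most abundant, averaged 230.3 ± 11.01 CPM over WT mice and 221.6 ± 8.16 CPM over mutants (SD, n = 6 each), a log2 change of -0.06 (SE 0.04, edgeR adjusted p = 0.446).

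For genotype 0 of the 5 genes of the eIF2 list passed edgeR's test, and 0 had an unadjusted p under 0.05. Eif2s1, whose protein is the target of the eIF2 kinases, had a log2 change of -0.04 with a 95% interval of -0.13 to 0.05. Eif2s2 had the smallest p of this list, with a log2 change of 0.07 (SE 0.03, edgeR adjusted p = 0.295), and its 2 genotypes overlapped. Of the 5 eIF2B subunits 0 passed and 2 had an unadjusted p under 0.05 in edgeR, Eif2b4 and Eif2b5. In the catalytic part of eIF2B, Eif2b5 had a log2 change of -0.10 (SE 0.04, edgeR adjusted p = 0.173). Eif2b3, also of that part, had 0.02 (SE 0.05, edgeR adjusted p = 0.859). Eif2b4 averaged 28.2 ± 1.74 CPM over WT mice and 25.8 ± 0.925 CPM over mutants, a log2 change of -0.13 (SE 0.05, edgeR adjusted p = 0.137), and passed only when WT female 1 was left out (adjusted p = 0.0284). Eif2b1 had a change of -0.09 (SE 0.05, edgeR adjusted p = 0.359).

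In eIF3, the large scaffold that joins the small subunit to the mRNA, 2 of the 14 genes were lower and 12 did not pass. Eif3b (ENSMUSG00000056076, chromosome 5, 140419328 to 140443360, plus strand) encodes a core subunit. Its level in WT mice had a lowest value of 96.8, a median of 100.1 and a highest value of 105.5 CPM. In P278KY mice these were 90.2, 91.6 and 94.2 CPM. Every mutant was below every WT mouse, with the closest pair being WT male 5 and P278KY female 9. The means were 100.4 ± 3.17 and 91.8 ± 1.496 CPM (SD, n = 6 each), 1.09-fold lower in P278KY, with a log2 change of -0.13 (SE 0.03, edgeR adjusted p = 0.0128). The call held in each of the 12 fits that left out 1 mouse, with an adjusted p of at most 0.0385 (without P278KY female 4). It was lost without mice 1 to 4 (adjusted p = 0.092), without mice 7, 10 and 11 (0.0893) and without mice 9 to 12 (0.254), where the log2 change was -0.11 to -0.14.

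Eif3j2, one of 2 near-identical genes of the loosely bound subunit that regulates mRNA entry, showed the widest change of the set. In WT mice it had a lowest value of 20.7, a median of 22.8 and a highest value of 28.2 CPM. P278KY mice had 16.0, 18.6 and 20.6 CPM. The groups met but did not overlap, with P278KY male 8 just under WT male 5. The means were 24.0 ± 3.03 and 18.4 ± 1.84 CPM, 1.30-fold lower in P278KY, with a log2 change of -0.38 (SE 0.09, edgeR adjusted p = 0.0278). Most of its sequence cannot be told from its partner, as 87.4% of its 75-base windows also occur in Eif3j1. Eif3j1 itself had a log2 change of 0.04 (SE 0.04, edgeR adjusted p = 0.55).

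When the expected counts of Eif3j1 and Eif3j2 were added, the pair averaged 75.6 ± 3.23 CPM over WT mice and 71.6 ± 2.84 CPM over mutants. The log2 change of the sum was -0.08 (SE 0.04), and it did not pass (edgeR adjusted p = 0.247). Eif3j2 alone also lost its call when 1 of 6 mice was left out (P278KY females 4 and 9, P278KY males 6 and 7, WT males 11 and 12), the highest adjusted p being 0.0731, and without mice 1 to 4, mice 7, 10 and 11 or mice 9 to 12 (0.107, 0.113 and 0.332). How the authors' counting divided the shared reads was not tested.

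The other 12 eIF3 genes had log2 changes of -0.03 to 0.09. Eif3c, a core subunit like Eif3b, had the next smallest p in the set and the opposite sign. Its lowest, median and highest values were 167.9, 175.2 and 179.8 CPM for WT and 179.2, 185.4 and 196.7 CPM for mutants. The groups overlapped narrowly, as WT female 2 and WT male 5 were just above P278KY female 4. The log2 change was 0.09 (SE 0.03), and edgeR did not call it (adjusted p = 0.0873), while the Wald test of DESeq2 did (adjusted p = 0.0208). Eif3k, the eIF3 gene with the highest TPM, averaged 55.4 ± 2.30 CPM over WT mice and 55.5 ± 1.17 CPM over mutants.

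None of the 12 genes that bind or unwind the capped mRNA passed, and 2 had an unadjusted p under 0.05 in edgeR. Eif4a2 had a log2 change of 0.01, with a 95% interval of -0.05 to 0.07. Eif4g2 averaged 699.5 ± 11.5 CPM over WT mice and 658.9 ± 24.0 CPM over mutants, a log2 change of -0.09 (SE 0.03, edgeR adjusted p = 0.122), and passed the Wald test of DESeq2 (adjusted p = 0.0162). On log2(TPM + 1) the change of Eif4g2 was -0.0047 and did not pass (limma adjusted p = 0.941). Eif4b, a partner of the helicase, had a change of 0.07 (SE 0.03, edgeR adjusted p = 0.212). The cap-binding genes Eif4e, Eif4e2 and Eif4e3 had changes of -0.03, 0.00 and 0.01. Eif4g1 was at -0.04 (SE 0.03), Eif4enif1, which carries eIF4E into the nucleus, at 0.07 (SE 0.04), and Eif4h and Eif4g3 at 0.01 and 0.00.

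Eif4a1 (chromosome 11, 69666936 to 69672423, minus strand) varied between mice more than its neighbours, and the pseudogene was highest in the mice where Eif4a1 was lowest. Eif4a1 was at 103.4 CPM in WT male 5, 98.7 CPM in P278KY male 6 and 107.7 CPM in P278KY female 3, against 130.1 to 144.1 CPM in the other 9 mice. In the same 3 mice Eif4a-ps4 was at 38.5, 44.7 and 40.01 CPM, against 16.7 to 25.6 CPM in the other 9. The 3 mice with low Eif4a1 are therefore the 3 with high pseudogene counts, and they come from both genotypes and both sexes.

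Summed, the pair lay between 141.9 and 163.9 CPM. The sum averaged 156.5 ± 7.62 CPM over WT mice and 151.8 ± 6.02 CPM over mutants (SD, n = 6 each). The log2 change of Eif4a1 alone was -0.10 (SE 0.10, edgeR adjusted p = 0.636), and that of the sum was -0.04 (SE 0.04, edgeR adjusted p = 0.585). The SE thus fell when the 2 were added, and neither value passed. Whether reads of one gene were counted for the other was not tested.

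**Figure D3:**
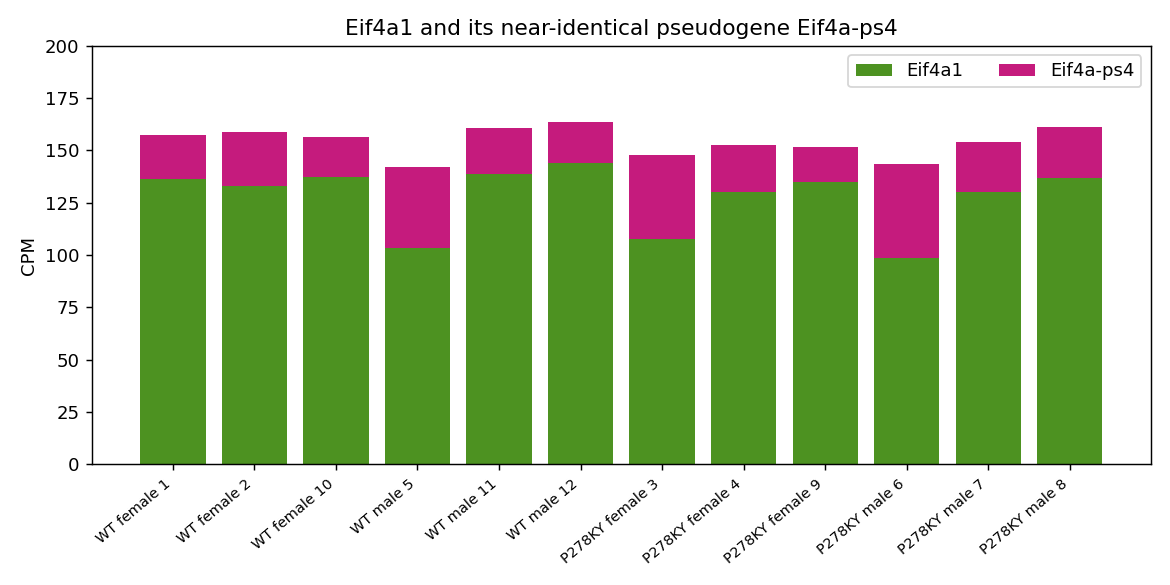
Stacked CPM of Eif4a1 (green) and Eif4a-ps4 (magenta) in each of the 12 mice. In WT male 5, P278KY female 3 and P278KY male 6 the green part is short (98.7 to 107.7 CPM) and the magenta part tall (38.5 to 44.7 CPM), while the full bars lie between 141.9 and 163.9 CPM in all mice.

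Of the eIF5 and eIF6 genes 2 of 5 were lower, both of them genes of eIF5A. Eif5a2 (ENSMUSG00000050192, chromosome 3, 28781276 to 28798846, plus strand) had a lowest value of 137.1, a median of 156.2 and a highest value of 159.7 CPM in WT mice. In P278KY mice these were 132.4, 133.8 and 144.9 CPM. The groups overlapped because WT female 1 was low, and the other 5 WT mice (from 153.8 CPM) were above all mutants. The means were 153.6 ± 8.41 and 136.2 ± 5.10 CPM, 1.13-fold lower in P278KY, with a log2 change of -0.17 (SE 0.04, edgeR adjusted p = 0.0170). The call was lost without P278KY male 6 (adjusted p = 0.0526), without mice 7, 10 and 11 (0.169) and without mice 9 to 12 (0.384).

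Eif5a (ENSMUSG00000078812, chromosome 11, 69916714 to 69921958, minus strand) is the widely expressed gene of the pair. Its lowest, median and highest values were 175.6, 177.7 and 184.6 CPM for WT and 162.7, 166.6 and 172.1 CPM for mutants. All mutants were below all WT mice, though the gap was about as wide as the SD of a group. The means were 178.5 ± 3.37 and 167.4 ± 3.39 CPM, 1.07-fold lower in P278KY, with a log2 change of -0.09 (SE 0.02, edgeR adjusted p = 0.0365). This call lay near the threshold and was lost in 9 of the 12 fits that left out 1 mouse (highest adjusted p 0.0852) and held only without WT female 1, P278KY female 3 or WT female 10. It was also lost with no filter on low counts (adjusted p = 0.0967), and without mice 1 to 4, mice 7, 10 and 11 or mice 9 to 12 (0.120, 0.131 and 0.285).

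The rest of this family did not pass. Eif5, which triggers GTP hydrolysis on eIF2, had a log2 change of 0.07 (SE 0.04, edgeR adjusted p = 0.362). Eif5b, which joins the large subunit, was at -0.02 (SE 0.03) and Eif6, which keeps the subunits apart, at -0.07 (SE 0.06). The hypusine enzymes Dhps and Dohh, which modify both eIF5A proteins, are counted among the other pathway genes below, and neither passed.

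Of the elongation factors proper none passed. All 5 eEF1 genes had a log2 change below 0, from -0.09 to -0.01, and 2 had an unadjusted p under 0.05 in edgeR. On the log2(TPM + 1) scale the sign was the opposite for Eef1a1 (0.07), Eef1b2 (0.06), Eef1d (0.02) and Eef1g (0.06). Eef1a1 averaged 1401 ± 55.6 CPM over WT mice and 1391 ± 50.4 CPM over mutants, a log2 change of -0.01 with a 95% interval of -0.09 to 0.07. Eef1b2, part of the exchange factor of eEF1A, had a change of -0.07 (SE 0.03, edgeR adjusted p = 0.189). Eef2 averaged 1360 ± 30.1 CPM over WT mice and 1342 ± 29.4 CPM over mutants, a change of -0.02 with an interval of -0.08 to 0.04.

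Eef1a2 lay between the called genes and the rest. Its lowest, median and highest values were 799.9, 837.4 and 876.0 CPM for WT and 776.9, 784.7 and 805.4 CPM for mutants. The groups overlapped by a single pair, as WT female 1 was below P278KY male 6, and WT female 10 (808.0 CPM) was just above that mutant. The log2 change was -0.09 (SE 0.03, edgeR adjusted p = 0.112). It passed the Wald test of DESeq2 (adjusted p = 0.0129) and limma voom with sample weights (0.0447), and it passed edgeR when WT female 1 was left out (0.0404). On log2(TPM + 1) the change of Eef1a2 was -0.01 and did not pass (limma adjusted p = 0.865).

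Over the 12 mice the tested genes whose log2 CPM followed Eef1a2 most closely were Ppm1f (Pearson r = 0.980), Tdrp (0.968), Fndc4 (0.954), Aqp6 (0.939) and Nell2 (0.933). They were picked as the highest of all tested genes, so these values are a description, and the mice they share differ in genotype and in cell type markers.

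Eef2k (ENSMUSG00000035064, chromosome 7, 120842831 to 120907450, plus strand), the kinase that phosphorylates eEF2 and thereby slows elongation, was the 1 gene that rose. Its lowest, median and highest values were 33.05, 34.4 and 35.9 CPM for WT and 35.8, 38.1 and 40.3 CPM for mutants. The groups overlapped by a single pair, as P278KY female 3 was just below WT male 12. The means were 34.4 ± 1.08 and 38.2 ± 1.68 CPM, 1.11-fold higher in P278KY, with a log2 change of 0.15 (SE 0.04, edgeR adjusted p = 0.0293). The call was lost in 7 of the 12 fits that left out 1 mouse (P278KY female 4, WT male 5, P278KY males 6, 7 and 8, WT female 10 or WT male 11), the highest adjusted p being 0.0768. It held without mice 1 to 4 (adjusted p = 0.0458) and was lost without mice 7, 10 and 11 (0.194) and without mice 9 to 12 (0.340).

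**Figure D4:**
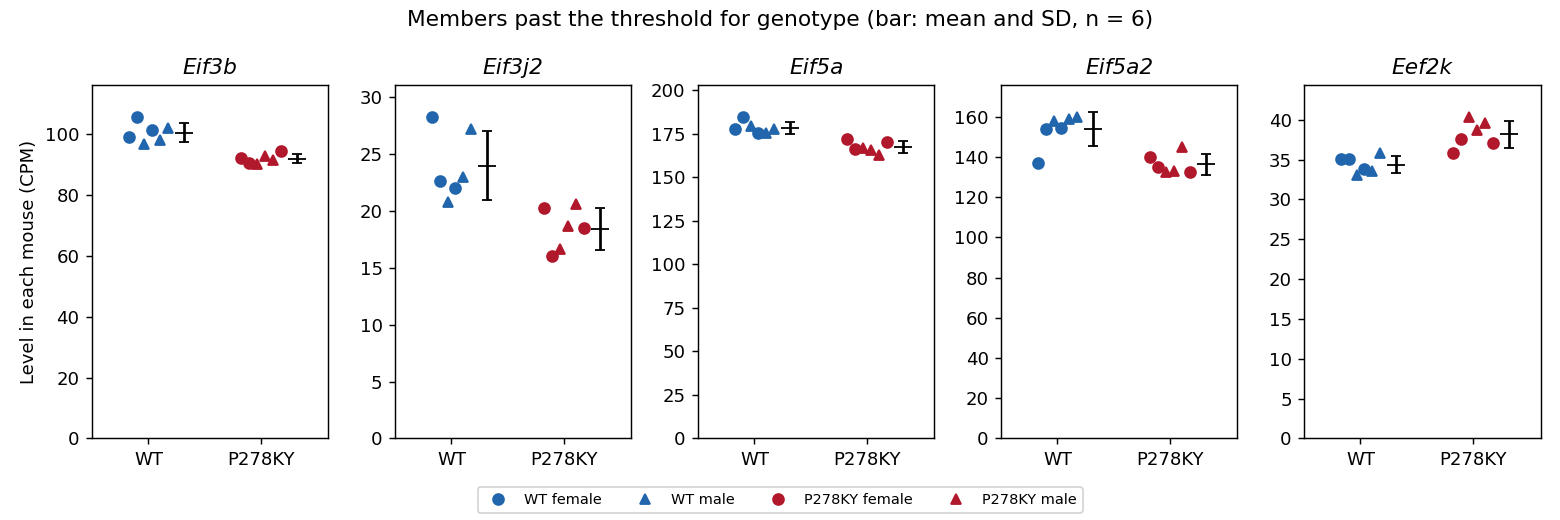
CPM in each mouse of the 5 genes past the threshold for genotype, on axes that start at 0 (circles, females; triangles, males; bars, mean and SD of 6 mice). The red points of Eif3b, Eif3j2 and Eif5a lie below all blue points, 1 WT female is low for Eif5a2, and the red points of Eef2k overlap the blue ones at 1 mouse.

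Markers of some cell types differed by genotype in these libraries. Summed motor neuron markers (11 of 12 listed genes in the files, none at 0 in all libraries) ran from 513 to 649 CPM over WT mice and from 465 to 490 CPM over mutants, and 7 of the 11 were called lower. Schwann cell markers (11 genes) summed to 1799 to 2941 CPM over WT mice and 648 to 1870 CPM over mutants, with 4 called lower. Skeletal muscle markers (18 genes) summed to 12472, 2911, 4855 and 1884 CPM in mice 1 to 4 and to 188 to 465 CPM in the others, with 0 called by edgeR and 0 at an unadjusted p under 0.05. Astrocyte, myelin, microglia and sensory ganglion lists had 1, 0, 0 and 3 genes called. WT female 1, the low WT mouse for Eif5a2 and Eef1a2, also had the lowest motor neuron sum of the WT mice and the highest muscle sum of all. The part of these markers in the changes of Eif3b, Eif3j2, Eif5a, Eif5a2 and Eef2k was not tested.

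The calls were partly different ones on the TPM scale. When log2(TPM + 1) was tested with limma, 5 genes again passed, 4 higher and 1 lower, and Eif3j2 (-0.28, adjusted p = 0.0461) was the only 1 of them called on counts. The 4 higher genes were Eif2a (0.16), Eif2s2 (0.14), Eif3c (0.17) and Eif4b (0.15). On this scale 8.93% of all genes passed, 1358 higher and 248 lower, against 425 higher and 531 lower on counts. The median over all tested genes moved to 0.06, and the factors moved with it, to a median of 0.06 with 41 of 53 above 0. TPM values had no further scaling between libraries, while the counts were scaled by TMM (a trimmed mean of log ratios), with factors of 0.975 to 1 in WT and 1.001 to 1.022 in mutant libraries. The log2 changes of the 4 genes lower on counts were -0.05 (Eif3b, limma adjusted p = 0.348), -0.10 (Eif5a2, 0.143), -0.28 (Eif3j2, 0.0461) and -0.01 (Eif5a, 0.898). Eef2k was at 0.21 (limma adjusted p = 0.197).

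Within each sex the same test had 3 mice per group. Mice 1 to 4, which had the high muscle marker sums, were all females. The part of muscle content in the counts by sex was not tested. In females 0 of the 53 genes passed edgeR's test (0.573% of all genes did). There 6 had an unadjusted p under 0.05, against 2223 of all 17980 tested genes. In males 1 passed, Eef2k (1.55% of all genes did), with a log2 change of 0.21 (SE 0.05, adjusted p = 0.0476) against 0.09 (SE 0.05) in females. The difference between the sexes did not pass for any of the 53 genes or for any other gene, with 0 of the 53 at an unadjusted p under 0.05 and the lowest p of the 53 at 0.0886. The male call of Eef2k was lost in 11 of the 12 fits that left out 1 mouse (all but the one without WT female 1), with its log2 change at 0.19 to 0.25 and edgeR adjusted p at 0.0536 to 0.177. It was also lost in all 3 fits that left out a set of mice and with no filter on low counts. The log2 change had the same sign in both sexes for 35 of the 53 genes, and for all 5 that passed over both sexes.

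Between females and males, 1 factor differed, and by more than any factor differed by genotype. Eif2s3x (ENSMUSG00000035150, X chromosome, 94188707 to 94212862, minus strand) encodes the gamma subunit of eIF2, which binds the initiator tRNA. It is known to escape X inactivation, and males carry a Y-linked partner gene that the naming rule left out. Its values were 197.0 to 209.0 CPM in the 6 females and 133.9 to 142.8 CPM in the 6 males, with no overlap. The means were 203.1 ± 5.09 and 137.0 ± 3.38 CPM (SD, n = 6 each), 1.48-fold higher in females, with a log2 difference of 0.57 (SE 0.03, 95% interval 0.51 to 0.63, edgeR adjusted p = 5.53e-08). Only 16 of all tested genes (0.089%) differed by sex.

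The sex difference of Eif2s3x was the same in both genotypes within their spread. Females averaged 202.6 ± 5.57 CPM in WT and 203.6 ± 5.74 CPM with the mutation. Males averaged 138.5 ± 4.43 and 135.5 ± 1.48 CPM in that order (SD, n = 3 each). Leaving out any 1 mouse gave a difference of 0.56 to 0.58, and leaving out mice 1 to 4, which include all but 2 of the females, gave 0.57 (edgeR adjusted p = 0.000139). Of its 75-base windows, 34.2% occur in Gm2223, a gene at 0.823 TPM.

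**Figure D5:**
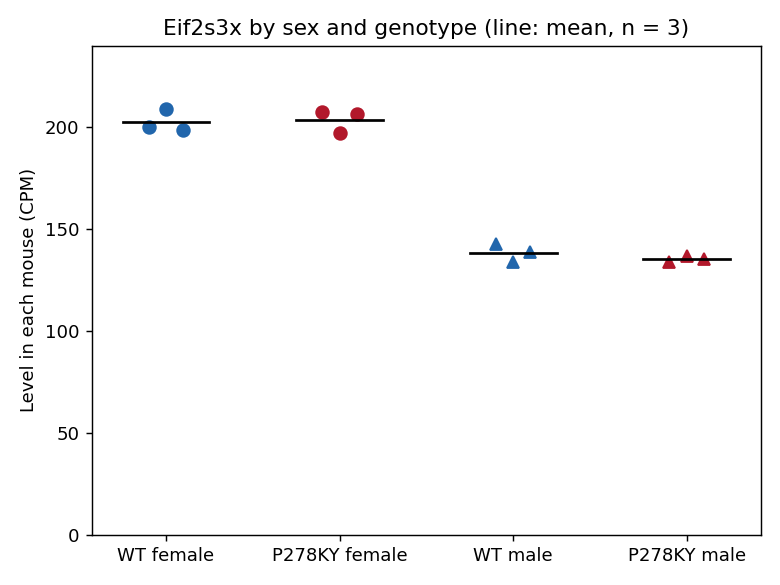
CPM of Eif2s3x in each mouse by sex and genotype, with lines at the means of 3 mice and an axis from 0. Both female groups lie at 197.0 to 209.0 CPM and both male groups at 133.9 to 142.8 CPM.

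The other X-linked factor, Eif1ax (eIF1A), was at 156.3 ± 5.12 CPM in females and 161.0 ± 6.14 CPM in males and did not pass. The log2 differences by sex of the 52 factors other than Eif2s3x ran from -0.07 to 0.17, with a lowest edgeR adjusted p of 0.47. Among the other pathway genes Ddx3x, an X-linked helicase that acts on structured leaders, was higher in females by 0.38 (SE 0.03, edgeR adjusted p = 1.1e-05).

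For 4 pairs of related factors the ratio of TPM values within a mouse was compared between genotypes, since a ratio does not depend on the scaling of the library. Eef1a1 exceeded Eef1a2 by 1.82 to 2.19 times in WT and by 1.97 to 2.23 times in P278KY mice. Eif5a exceeded Eif5a2 by 4.74 to 5.67 times in WT and by 5.004 to 5.63 times in P278KY mice. The groups overlapped for both pairs. The differences in mean log2 ratio were 0.08 (exact permutation p = 0.171, adjusted over the 4 pairs 0.342) and 0.09 (exact permutation p = 0.0866, adjusted 0.342). With 1 mouse left out, the lowest difference for Eif5a to Eif5a2 was 0.07, without WT male 12 (exact permutation p = 0.154, adjusted 0.548). The highest was 0.12, without WT female 1 (exact permutation p = 0.0152, adjusted 0.0606). For Eif4a1 to Eif4a2 the difference was -0.11 (exact permutation p = 0.281, adjusted 0.375). It was -0.19 without WT male 5 (exact permutation p = 0.0173, adjusted 0.0693) and -0.07 without P278KY female 3 (exact permutation p = 0.532, adjusted 0.710), 2 of the mice with high Eif4a-ps4. Without P278KY male 6, also high for Eif4a-ps4, it was -0.08 (exact permutation p = 0.463, adjusted 0.618). For Eif1 to Eif1b it was -0.03 (exact permutation p = 0.677, adjusted 0.677). All tests were two-sided, over 924 arrangements of the 12 mice or over 462 where 1 mouse was left out.

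Other genes of translation and its control were also tested. Their 4 lists were binding proteins and kinases, poly(A) binding with reinitiation and hypusine, termination with recycling, and mitochondrial factors. These lists held 48 tested genes. None passed for genotype in edgeR, and 6 had an unadjusted p under 0.05, against 3637 of all 17980 tested genes. Their median log2 change was 0.00, and 41 of 48 intervals lay within 1.2-fold. Impact, which restrains the eIF2 kinase GCN2, came closest, averaging 284.7 ± 16.2 CPM over WT mice and 310.7 ± 15.2 CPM over mutants, a change of 0.13 (SE 0.04, edgeR adjusted p = 0.0946). Pdcd4, an inhibitor of the eIF4A helicase, was at 0.12 (SE 0.04, edgeR adjusted p = 0.122). Dhx29, a helicase of scanning ribosomes, and Denr, a reinitiation factor, were both at -0.09 (edgeR adjusted p = 0.136 and 0.144). Eefsec, the elongation factor for selenocysteine, was at -0.14 (SE 0.07, edgeR adjusted p = 0.276) and Gspt2, a release factor, at 0.09 (SE 0.05, edgeR adjusted p = 0.328). Of the mitochondrial factors Tufm was at -0.06 and Mtif3 at -0.07 (edgeR adjusted p = 0.554 and 0.588).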

How the data were processed

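Whole spinal cord of 12 mice was profiled by poly(A) RNA-seq, 1 table of genes per mouse. Per the submitters' processing notes the tools were Bowtie2 2.2.0 and RSEM 1.2.12. Genome build and annotation were not given in the sources used here. Per mouse, the authors deposited expected counts (estimated reads per gene, with reads that match several genes divided among them, per the file headers), TPM (transcripts per 1e+06, per transcript length, per the file headers) and FPKM; the deposited FPKM values were not used.

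Expected counts were rounded. Genes were kept by filterByExpr of edgeR over the 4 groups and scaled by TMM; CPM uses these scaled totals. Genotype and sex effects came from edgeR's quasi-likelihood F test (sex + genotype, all mice), effects within a sex and the interaction from 4 group means, with Benjamini-Hochberg adjustment over 17980 genes and a threshold of 0.05. SEs were derived from the log2 change and the F statistic. The fit was also run on simulated counts. The changes planted there were larger than those of the factors called for genotype, so that run does not bear on changes of this size. Tools were DESeq2 1.42.0, edgeR 4.0.16 and limma 3.58.1 in R 4.3.3. TPM were tested as log2(TPM + 1), with a pseudocount of 1. Positions and shared 75-base windows (same strand) come from GENCODE M21, which may differ from the authors' annotation; Eif4a-ps4 was matched by symbol.

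The set and the lists were chosen with earlier results of these data known. Genes past the threshold, then the smallest genotype P values up to 15, then the most abundant of each family, and up to 2 by P value of each pathway list, are named with values. Labels show separate mice. Alternatives were other size factors, DESeq2's Wald test, voom, 2 other filters, unrounded counts, log2(TPM + 1), no sex term, each mouse left out, and 3 sets of mice left out that earlier results had shown to differ in muscle, ganglion or clock genes. The sums of near copies were added after the data were seen.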

Additional observations from a re-analysis of the deposited data

Results flagged for a closer look

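In groups of 6 mice, a single mouse lay far from the other 5 (a gap over the 95% critical value of Dixon's test) in 7 of 106 groups of CPM values (6.6%), and chance gives about 1 in 20. The 2 that come first below concern genes on which results above rest. Eif5a2 was at 137.1 CPM in WT female 1, against 153.8 to 159.7 CPM in the other WT mice. Eif4a1 was at 103.4 CPM in WT male 5, against 133.2 to 144.1 CPM in the other WT mice, and Eif4a-ps4 was high in that mouse. WT female 1 was also low for Eif4enif1, at 35.0 CPM against 39.4 to 41.5 CPM, and WT male 5 was high for Eif2b1, at 22.3 CPM against 18.5 to 19.9 CPM. Eif1ad was at 23.1 CPM in WT female 2, against 19.0 to 20.4 CPM. Among mutants Eif2s1 was at 35.8 CPM in P278KY female 3, against 32.3 to 33.5 CPM, and Eif1a at 28.1 CPM in P278KY female 9, against 31.1 to 32.9 CPM.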

How the results depend on the processing

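Of the factors, 5 passed for genotype in the edgeR fit, and 8 by the Wald test of DESeq2, where all genes called rose from 956 to 1627. All genes called were 1467 with limma voom and 1606 on log2(TPM + 1). Leaving out 1 mouse gave 1 to 7 factors and 542 to 1385 genes. Without mice 1 to 4, 2 factors and 557 genes passed; without mice 7, 10 and 11, 0 factors (9 at an unadjusted p under 0.05, edgeR) and 253 genes; without mice 9 to 12, 0 factors (6 at an unadjusted p under 0.05, edgeR) and 84 genes. These fits have fewer samples. In males, where 1 factor passed, 0 did with no filter (9 at an unadjusted p under 0.05, edgeR) and in those 3 subsets (10, 4 and 3), and 0 did in 11 of the 12 fits that left out 1 mouse, the range being 0 to 2 (4 to 11).

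Some values changed sign. On log2(TPM + 1), 41 of 53 changes were above 0, against 21 on counts. There Eef1b2, at -0.07 on counts with an interval (-0.14 to -0.01) that leaves out 0, was at 0.0593. Of the values near 0 on counts, the change was 0.06515 for Eef1a1, 0.05675 for Eef2, 0.00134 for Eif1 and 0.0786 for Eif2s3x. Eif3k was at -0.000387 with the stricter filter (1 CPM in 6 libraries) and at -0.0237 without mice 7, 10 and 11. Eif4a2 was at -0.00373, -0.0163 and -0.00746 without mice 1 to 4, mice 7, 10 and 11 and mice 9 to 12, and Eef1a1 at 0.0139 without mice 1 to 4. Leaving out 1 mouse gave -0.0282 to 0.00377 for Eef1a1, -0.0109 to 0.0172 for Eif3k and -0.00656 to 0.0196 for Eif4a2. The ratio of Eif1 to Eif1b gave -0.0633 to 0.0156, above 0 without WT female 1. The cause was not tested. The sex call of Eif2s3x held under all alternatives run. No paired analysis was possible because the mouse numbers 1 to 12 are not shared between groups.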
